A study of Mus musculus with 12 samples.

Results

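The mitotic cell cycle genes are 38 genes whose proteins drive or carry out nuclear and cell division, and their transcripts were read here in mouse macrophages before and after exposure to bacterial lipopolysaccharide (LPS). They were chosen by gene name, with earlier results of these data known, and the rule used no measured value: a probe belonged to the set when its gene symbol in the scanner files equalled a listed symbol, and the probe with the highest mean log2 intensity over the 12 arrays stood for its gene. Of the 38 genes, 36 passed the filter on dim probes, which asked for a signal well above background on every array of 1 or more groups, among 20491 genes that passed it in all. The probe of Aurkb (a passenger complex kinase) did not exceed background clearly on any of the 12 arrays, and that of Cenpf (a kinetochore protein) did so only on recovered array 2, so neither was tested.

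Total RNA from bone marrow-derived macrophages, the phagocytes that grow out of marrow in the presence of macrophage growth factor, was hybridised to single-colour Agilent expression arrays, 3 for each of 4 groups. The donors of the marrow were female C57BL/6 mice aged 6 to 8 weeks, and the cells of all groups had been grown for 7 days in medium conditioned by L929 cells, a fibroblast line that secretes that factor. Untreated cells received no LPS. Acute cells received LPS once, for 4 h. Tolerant cells received LPS for 8 h, rested for 16 h and then met it for a further 4 h. For recovered cells both exposures were as in tolerant cells and the rest lasted 88 h by the sample descriptions (2 to 4 days by the protocol text). Every group but the untreated one was therefore collected 4 h after its last dose, and tolerant and recovered cells also differed in total time in culture from the other groups, which cannot be told apart from the treatment. The 3 arrays of a group came from independent experiments per the series' design text. Whether these used separate animals is not stated, so p-values measure the spread between arrays.

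Mitosis is driven by Cdk1 bound to cyclins A and B, which the phosphatase Cdc25c switches on and which, with the kinases Plk1 and Aurka, condenses chromosomes and builds the spindle. The spindle checkpoint then holds back Cdc20 and the anaphase-promoting complex until every kinetochore is attached, after which separase (Espl1) cuts cohesin and the central spindle directs cytokinesis. Transcripts of these genes accumulate late in each cycle under the MuvB complex, B-Myb and Foxm1, which act on promoters through the cell cycle genes homology region and on CCAAT boxes bound by NF-Y. Macrophages grown from marrow divide in response to macrophage growth factor, and LPS is known to arrest that growth.

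Promoters were available for 31 of the 38 genes in the RefSeq table used (build GRCm38.p6, from 250 bases before to 50 after the start). They were searched on both strands for the letters of the homology region, TTTGAA or its variant TTCGAA, and for the CCAAT box. Read from the other strand, the motif TTTGAA appears as TTCAAA and the box as ATTGG. A match of 1 kind can share at most an end base with a match of the other kind. The homology letters were present in 23 of the 31 (74.2%), against 19.4% of all 27025 promoters of the same length and 14.1% of the 9673 that belonged to a gene tested here. CCAAT was present in 23 (74.2%), against 37.8% of all promoters, and at least 2 copies stood in 16 (51.6%), against 14.1% of the promoters of genes tested here. Both kinds of motif were present in 20 (64.5%), against 7.57%. A match of letters is a description of the sequence and not evidence of binding.

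The 120 bases before the start are shown for 6 genes whose levels followed different courses over the groups, with the matches in capitals. Ccnb2 and Kif11 were low in tolerant cells and near or closer to the untreated level in the other groups, Cdc20 and Espl1 were below untreated in every LPS group, Mki67 was above untreated, and Cdk1 is the kinase at the centre of the pathway. In GRCm38.p6 the stretches lie at chr9:70421555-70421674, minus strand (Ccnb2), chr10:69352913-69353032, minus strand (Cdk1), chr4:118437344-118437463, minus strand (Cdc20), chr19:37376262-37376381, plus strand (Kif11), chr15:102296173-102296292, plus strand (Espl1) and chr7:135716380-135716499, minus strand (Mki67).
Ccnb2: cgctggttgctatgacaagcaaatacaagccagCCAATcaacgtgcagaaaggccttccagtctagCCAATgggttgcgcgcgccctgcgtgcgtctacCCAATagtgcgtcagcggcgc
Cdk1: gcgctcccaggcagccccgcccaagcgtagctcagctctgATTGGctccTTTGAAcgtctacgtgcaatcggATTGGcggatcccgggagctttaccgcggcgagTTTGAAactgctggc
Cdc20: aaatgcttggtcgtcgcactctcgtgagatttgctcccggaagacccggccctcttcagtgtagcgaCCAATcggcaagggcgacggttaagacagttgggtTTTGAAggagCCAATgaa
Kif11: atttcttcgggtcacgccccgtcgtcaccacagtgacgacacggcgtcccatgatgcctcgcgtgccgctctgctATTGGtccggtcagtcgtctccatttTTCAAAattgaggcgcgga
Espl1: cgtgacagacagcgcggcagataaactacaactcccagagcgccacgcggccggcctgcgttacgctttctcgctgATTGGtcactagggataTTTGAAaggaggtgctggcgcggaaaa
Mki67: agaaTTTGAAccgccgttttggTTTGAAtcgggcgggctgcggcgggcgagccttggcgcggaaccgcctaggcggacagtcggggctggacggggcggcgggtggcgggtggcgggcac

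Within these 120 bases Ccnb2 held 3 CCAAT boxes and no homology letters, which it had elsewhere in the window, while Cdk1, Cdc20, Kif11 and Espl1 held both kinds. Mki67, which rose in acute and recovered cells, held 2 copies of TTTGAA, and its CCAAT boxes lay farther upstream in the window. Changes were also set side by side by motif. In tolerant against untreated cells the median log2 change was -1.13 over 19 measured members with both kinds and -1.22 over 11 with at most 1 kind, and over all tested genes it was -0.04 (559 genes with both kinds) and 0.01 (9114 genes with at most 1 kind).

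The arrays were similar in the share of spots detected. Between 47.8% and 55.0% of spots were well above background and no spot was saturated. Levels are given as log2 processed intensity, scaled so that the 75th percentile is equal on all arrays, and a gene was called where the limma test gave a Benjamini-Hochberg adjusted p under 0.05 over all genes tested. A difference in log2 level is written with its standard error (SE), and a gene called higher or lower is said to have risen or fallen. The arrays were on 3 slides, with replicate 3 of every group on a slide of its own scanned on the second day. Macrophage markers fitted the label: 9 of 9 (among them Csf1r, Adgre1, Cd68 and Lyz2) were above background on every array of every group.

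Across the 36 measured genes the tolerant group was the lowest on average. The median of each array, taken after subtracting a gene's mean over the untreated arrays, was 0.24, -0.18 and -0.03 on untreated arrays 1 to 3. It was -0.29, -0.48 and -0.91 on the acute arrays, and -0.74, -1.51 and -1.43 on the tolerant arrays. On the recovered arrays it was -0.08, -0.16 and -0.79. The untreated and tolerant arrays did not overlap, tolerant array 1 lay above acute array 3 and recovered array 3, and recovered arrays 1 and 2 fell inside the untreated range and recovered array 3 near the acute ones. The group mean was lowest in tolerant cells for 32 of the 36 genes, against 26.8% of all genes tested. It was highest in untreated cells for 27 of the 36, against 29.1% of all genes tested. The F-test over the 4 groups called 30 of the 36, against 40.1% of all genes. In bulk RNA, fewer dividing cells and less mitotic RNA in each cell cannot be told apart.

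**Figure D1:**
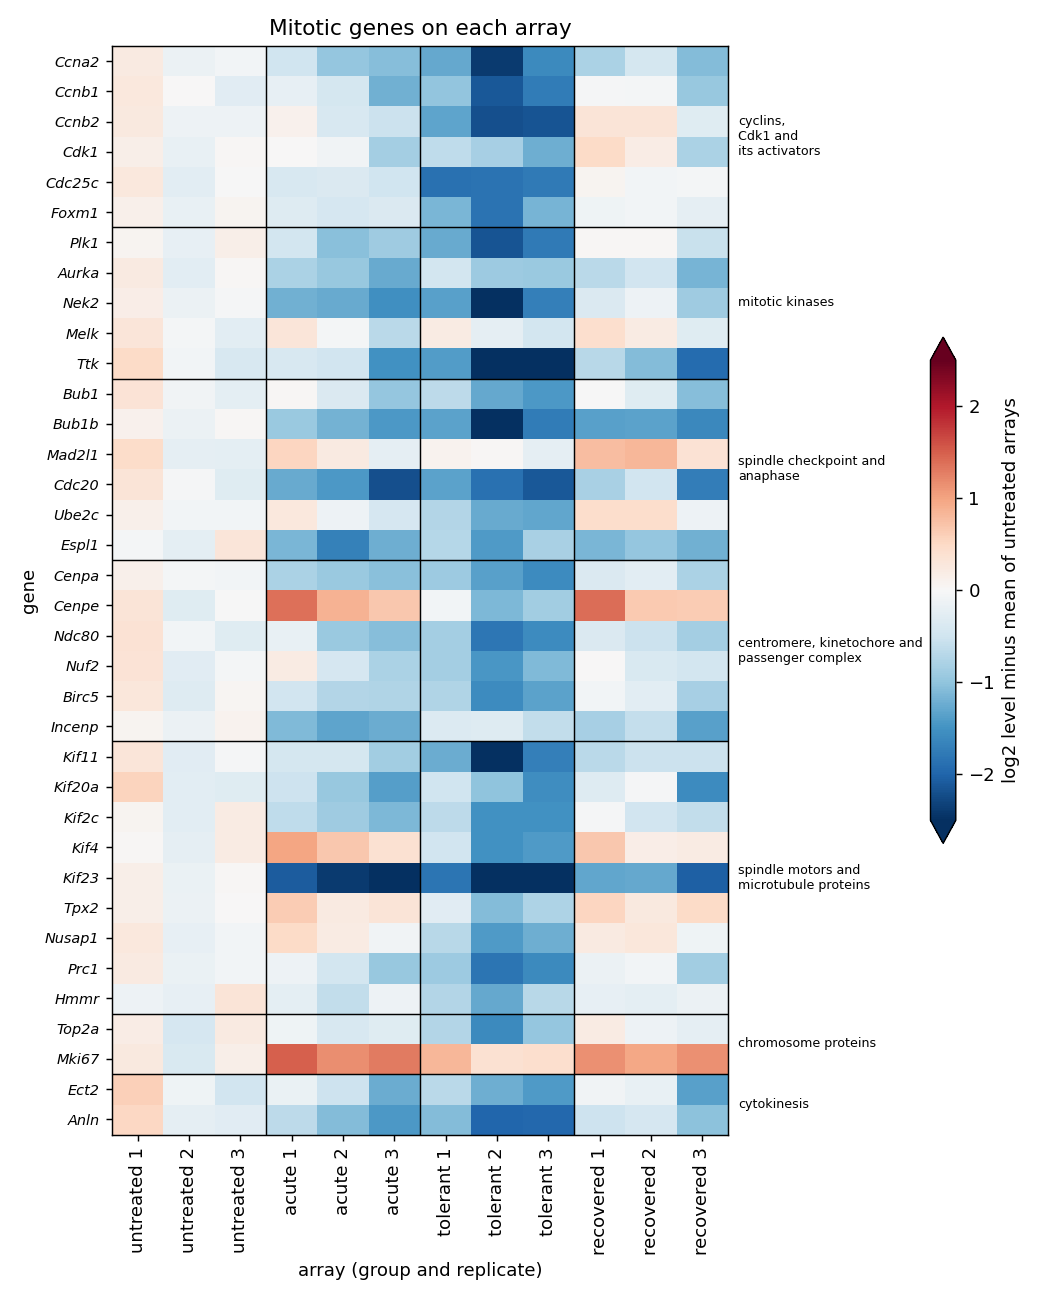
Log2 level of each of the 36 measured genes (rows, grouped by role) on each of the 12 arrays (columns), as the difference from that gene's mean over the 3 untreated arrays; blue is lower and red higher, and the colour scale ends at 2.5 in either direction. The tolerant columns are blue in nearly every row, Kif23 is blue in all 9 LPS columns, and Mki67 is red in all 9.

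**Figure D2:**
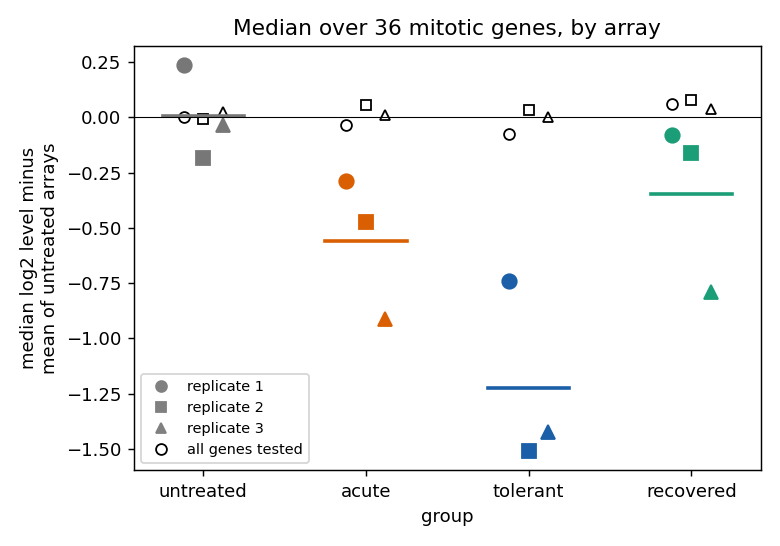
Median over the 36 genes on each array (filled symbols, 1 per array, shaped by replicate number) and the group mean (line), on the log2 scale as a difference from the untreated mean; open symbols give the same median over all 20491 genes tested. Tolerant arrays lie between -1.51 and -0.74, below every untreated array, while the all-gene medians stay near 0.

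Tolerant cells showed the widest loss of mitotic transcripts. Of the 36 genes measured, 28 were lower than in untreated cells and 0 were higher (limma), against 8.63% of all genes lower and 11.3% higher; at an unadjusted p under 0.05 the counts were 33 lower and 1 higher. The median log2 difference was -1.17, against -0.02 over all genes. The 3 tolerant arrays lay below the 3 untreated arrays, without overlap, for 32 genes (17.1% of all genes tested). Ttk passed the filter only through its untreated arrays, and Cdc25c only through untreated and recovered arrays, so those 2 could enter only if high there. With no filter, 25 of the 38 genes were lower, while the shares of all genes given above are for the filtered set.

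Cyclins and the activators of Cdk1 fell together, 5 of 6. Ccnb2, cyclin B2, had log2 levels of 11.27, 10.90 and 10.90 on the untreated arrays, 11.12, 10.61 and 10.49 on the acute arrays, 9.71, 8.81 and 8.86 on the tolerant arrays and 11.34, 11.35 and 10.72 on the recovered arrays. All 3 tolerant arrays were below all others, while recovered arrays 1 and 2 lay just above the untreated range and recovered array 3 just below it. The difference between tolerant and untreated was -1.89 ± 0.28, adjusted p = 0.000653, a 3.71-fold lower level. Ccnb1, cyclin B1, had levels of 9.96, 9.73 and 9.43 on the untreated arrays, 9.49, 9.27 and 8.50 on the acute arrays, 8.73, 7.58 and 7.96 on the tolerant arrays and 9.67, 9.66 and 8.75 on the recovered arrays. Its tolerant level was 3.07-fold below untreated (-1.62 ± 0.36, adjusted p = 0.00793), with no overlap. Ccna2, cyclin A2, which partners both S phase and mitotic kinases, stood at 10.17, 9.80 and 9.88 on the untreated arrays, 9.46, 8.99 and 8.89 on the acute arrays, 8.67, 7.55 and 8.36 on the tolerant arrays and 9.16, 9.51 and 8.88 on the recovered arrays. It was 3.38-fold lower in tolerant cells (-1.76 ± 0.28, adjusted p = 0.00113), and the acute and recovered arrays lay between the other groups.

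Cdk1 itself was not called. Its levels were 9.01, 8.69 and 8.91 on the untreated arrays, 8.89, 8.78 and 8.03 on the acute arrays, 8.24, 8.03 and 7.64 on the tolerant arrays and 9.34, 9.05 and 8.08 on the recovered arrays. The tolerant arrays were below the untreated ones without overlap, but array 3 was low in the acute and recovered groups as well. The difference of -0.90 ± 0.32 missed the threshold (adjusted p = 0.0785) and passed it with the replicate number as a block (adjusted p = 0.00905). Foxm1, the forkhead factor that activates late cell cycle genes, had levels of 7.91, 7.60 and 7.85 on the untreated arrays, 7.46, 7.37 and 7.42 on the acute arrays, 6.64, 5.94 and 6.63 on the tolerant arrays and 7.67, 7.72 and 7.55 on the recovered arrays. The tolerant arrays stood well below the rest, and Foxm1 was 2.61-fold lower there (-1.38 ± 0.19, adjusted p = 0.000386). A further, dimmer Foxm1 probe differed in the same direction but was not called (-0.93, limma over all probes kept, adjusted p = 0.0548). That probe was also not called in tolerant against acute cells (-0.74, adjusted p = 0.108) or in recovered against tolerant cells (0.80, adjusted p = 0.0895).

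Cdc25c, the phosphatase that activates Cdk1, was dim throughout. It stood at 5.01, 4.49 and 4.75 on the untreated arrays, 4.34, 4.38 and 4.25 on the acute arrays, 2.88, 2.90 and 2.99 on the tolerant arrays and 4.81, 4.67 and 4.71 on the recovered arrays, and its probe was well above background on no tolerant array and on 2 of 3 acute arrays. The measured means were 4.75 in untreated and 2.92 in tolerant cells. As the tolerant value is only a bound, the level was at least 1.40-fold lower, taking the higher of the probe's own signal and the lowest signal of any probe above background on that array (adjusted p = 7.5e-06). Under normexp background correction this call was lost, with an adjusted p of 0.0759.

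Among the mitotic kinases 4 of 5 measured genes fell, and Melk did not (-0.16 ± 0.29, adjusted p = 0.765). Plk1, which drives mitotic entry and spindle assembly, had levels of 10.47, 10.20 and 10.56 on the untreated arrays, 9.94, 9.36 and 9.53 on the acute arrays, 9.16, 8.25 and 8.65 on the tolerant arrays and 10.44, 10.44 and 9.85 on the recovered arrays. The tolerant arrays were the 3 lowest and the recovered arrays 1 and 2 lay within the untreated range. Plk1 was 3.31-fold lower in tolerant cells (-1.73 ± 0.26, adjusted p = 0.000701). Nek2, a centrosome kinase, had levels of 7.56, 7.25 and 7.35 on the untreated arrays, 6.19, 6.14 and 5.85 on the acute arrays, 6.04, 4.82 and 5.69 on the tolerant arrays and 7.02, 7.25 and 6.50 on the recovered arrays. It was 3.66-fold lower (-1.87 ± 0.29, adjusted p = 0.000927), and every acute and tolerant array was below every untreated and recovered one. Aurka, the spindle pole kinase, had levels of 10.19, 9.71 and 9.999 on the untreated arrays, 9.17, 9.03 and 8.70 on the acute arrays, 9.50, 9.05 and 9.05 on the tolerant arrays and 9.30, 9.50 and 8.80 on the recovered arrays. Its tolerant decrease was smaller (-0.77 ± 0.22, adjusted p = 0.0316), and was lost without untreated array 1 or 3 or without tolerant array 2 or 3, with adjusted p up to 0.11. Ttk, the checkpoint kinase Mps1, was not above background on any tolerant or recovered array, and was at least 1.70-fold lower in tolerant cells (means 5.03 and 2.84, adjusted p = 0.00399, lost under normexp at 0.128).

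The listed Aurkb probe read 2.05, 3.74 and 3.74 on the untreated arrays, 2.38, 1.99 and 2.86 on the acute arrays, 2.39, 2.33 and 2.31 on the tolerant arrays and 3.05, 2.29 and 2.40 on the recovered arrays, with all 12 values at background. Nothing is therefore known here of its course.

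Genes of the spindle checkpoint and of anaphase fell in 5 of 6 cases, Mad2l1 being the exception (-0.04 ± 0.24, adjusted p = 0.947). Bub1b, the checkpoint protein BubR1, had levels of 8.60, 8.33 and 8.52 on the untreated arrays, 7.56, 7.30 and 7.04 on the acute arrays, 7.15, 5.97 and 6.74 on the tolerant arrays and 7.12, 7.14 and 6.87 on the recovered arrays. All 9 LPS arrays were below the untreated arrays, and tolerant array 2 was the lowest of all. Its tolerant level was 3.64-fold lower (-1.86 ± 0.26, adjusted p = 0.000478). Cdc20, the activator of the anaphase-promoting complex, had levels of 10.35, 10.004 and 9.73 on the untreated arrays, 8.76, 8.60 and 7.82 on the acute arrays, 8.69, 8.16 and 7.91 on the tolerant arrays and 9.21, 9.55 and 8.30 on the recovered arrays. Acute and tolerant arrays shared 1 range, 3.43-fold below untreated in tolerant cells (-1.78 ± 0.35, adjusted p = 0.00404). Ube2c, the ubiquitin-conjugating enzyme of that complex, fell too (-1.10 ± 0.23, adjusted p = 0.00572).

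At centromeres and kinetochores 4 of 6 measured genes fell. Birc5, survivin of the passenger complex, had levels of 12.18, 11.58 and 11.94 on the untreated arrays, 11.43, 11.17 and 11.16 on the acute arrays, 11.15, 10.34 and 10.57 on the tolerant arrays and 11.84, 11.64 and 11.08 on the recovered arrays. The tolerant arrays were below all untreated and acute arrays though tolerant array 1 was close to the lowest acute array, and Birc5 was 2.32-fold lower than untreated (-1.22 ± 0.26, adjusted p = 0.00591). Cenpa, the histone variant of centromeres, had levels of 9.64, 9.46 and 9.45 on the untreated arrays, 8.73, 8.59 and 8.47 on the acute arrays, 8.61, 8.16 and 7.95 on the tolerant arrays and 9.15, 9.25 and 8.73 on the recovered arrays. All LPS arrays were below all untreated arrays, most so in tolerant cells (-1.28 ± 0.20, adjusted p = 0.000859). Cenpe and Incenp, which took other courses, were not called in this comparison (-0.69 ± 0.31, adjusted p = 0.158 and -0.43 ± 0.19, adjusted p = 0.149). With the replicate block Cenpe was called lower (adjusted p = 0.00336).

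Spindle motors and microtubule proteins fell in 8 of 9 cases, and the remaining gene, Kif20a, was not called (-1.02 ± 0.42, adjusted p = 0.12; with the replicate block adjusted p = 0.00787). Kif11, the motor that pushes spindle poles apart, had levels of 7.43, 6.84 and 7.08 on the untreated arrays, 6.68, 6.69 and 6.24 on the acute arrays, 5.87, 4.23 and 5.40 on the tolerant arrays and 6.44, 6.57 and 6.58 on the recovered arrays. Tolerant array 2 was not above background, the 3 tolerant values spread most widely (SD 0.84), and all 3 were below every other array. Kif11 was 3.87-fold lower than untreated (-1.95 ± 0.34, adjusted p = 0.00196). Kif23, the central spindle motor needed for cytokinesis, had levels of 8.34, 8.02 and 8.22 on the untreated arrays, 6.10, 5.79 and 5.55 on the acute arrays, 6.37, 5.56 and 5.49 on the tolerant arrays and 6.90, 6.92 and 6.16 on the recovered arrays. No LPS array reached the untreated range, and the tolerant decrease of 5.23-fold was the largest of the set (-2.39 ± 0.28, adjusted p = 0.000119). Kif4, a chromosome-binding motor, had levels of 6.85, 6.60 and 7.04 on the untreated arrays, 7.83, 7.52 and 7.21 on the acute arrays, 6.36, 5.32 and 5.42 on the tolerant arrays and 7.50, 6.99 and 7.05 on the recovered arrays. It was lower in tolerant cells (-1.13 ± 0.28, adjusted p = 0.0145), and that call was lost without untreated array 3 or without tolerant array 2 or 3 (adjusted p up to 0.119).

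Top2a, the topoisomerase that untangles sister chromatids, had levels of 9.83, 9.21 and 9.86 on the untreated arrays, 9.53, 9.23 and 9.34 on the acute arrays, 8.90, 8.05 and 8.66 on the tolerant arrays and 9.83, 9.50 and 9.41 on the recovered arrays. The tolerant arrays were all below the lowest untreated array, a 2.14-fold difference (-1.10 ± 0.24, adjusted p = 0.00807). Of the cytokinesis genes Anln, the cleavage furrow scaffold, fell (-1.67 ± 0.32, adjusted p = 0.00308) and Ect2, the exchange factor that triggers the furrow, did not pass the test (-1.10 ± 0.40, adjusted p = 0.0814; with the block adjusted p = 0.000986). Of the 28 calls, 18 held in all 21 alternative settings and 5 were lost without at least 1 array. The median stayed between -1.46 and -0.92 over those settings, and with the replicate block 32 genes were lower and 1, Mki67, was higher (adjusted p = 0.00731). The shares of all genes, here and below, belong to the fit without a block, so counts with a block have no share beside them.

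**Figure D3:**
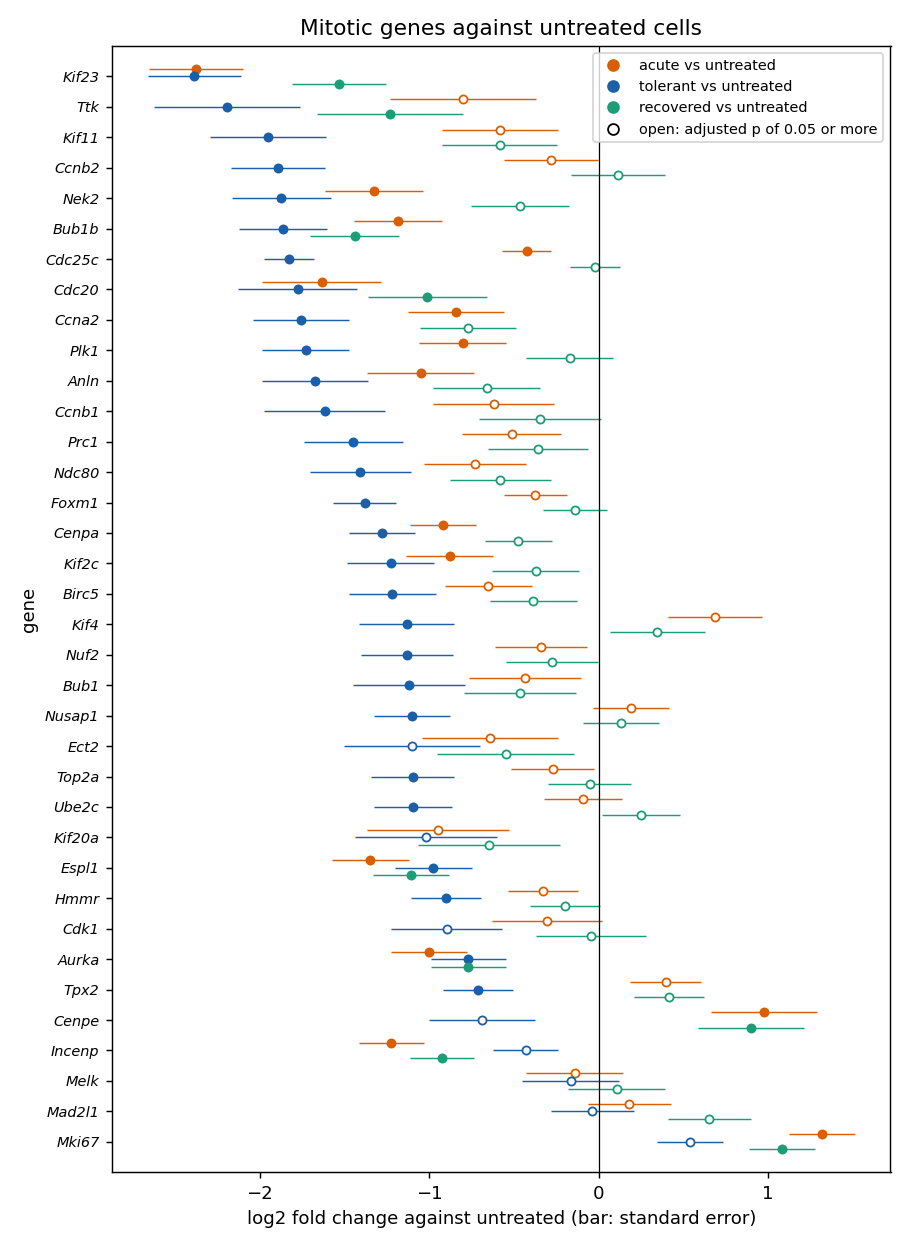
Log2 difference from untreated cells for each of the 36 genes in acute (orange), tolerant (blue) and recovered (green) cells, with bars of 1 SE and filled points where the adjusted p was under 0.05; genes are ordered by the tolerant difference. Tolerant points lie left of 0 for nearly all genes, from -2.39 for Kif23, while Mki67 and Cenpe have filled points right of 0 in acute and recovered cells.

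Acute LPS lowered part of the set. After 4 h, 13 of the 36 measured genes were lower than in untreated cells and 2 were higher, against 15% of all genes lower and 14.3% higher. The median log2 difference was -0.60, against 0.02 over all genes, and moved to -0.33 with normexp background correction. The genes that fell most were Kif23 (-2.38 ± 0.28, adjusted p = 5.67e-05), Cdc20 (-1.64 ± 0.35, adjusted p = 0.0042) and Espl1 (-1.35 ± 0.23, adjusted p = 0.000833), the separase that cuts cohesin. Kif23 was 5.2-fold lower, and its acute and tolerant levels were close, with no call between them (-0.01 ± 0.28, adjusted p = 0.984). Nek2 (-1.33 ± 0.29, adjusted p = 0.00482), Incenp (-1.22 ± 0.19, adjusted p = 0.000511), Bub1b (-1.18 ± 0.26, adjusted p = 0.00505), Aurka (-1.002 ± 0.22, adjusted p = 0.0052) and Cenpa (-0.92 ± 0.20, adjusted p = 0.00408) fell as well. These 8 genes act at the spindle pole, the centromere, the checkpoint, the anaphase switch or the central spindle. Anln (-1.05 ± 0.32, adjusted p = 0.0264) and the microtubule-destabilising motor Kif2c (-0.88 ± 0.26, adjusted p = 0.023) were called too, and both calls were lost without untreated array 1 or without acute array 2 or 3.

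Cyclins and Cdk1 were closer to untreated in acute cells. Ccnb2 (-0.28 ± 0.28, adjusted p = 0.538), Ccnb1 (-0.62 ± 0.36, adjusted p = 0.243) and Cdk1 (-0.30 ± 0.32, adjusted p = 0.573) did not pass the test. Ccna2 (-0.84 ± 0.28, adjusted p = 0.0441), Plk1 (-0.80 ± 0.26, adjusted p = 0.0355) and Cdc25c (-0.42 ± 0.15, adjusted p = 0.0493) were called, each near the threshold. The Ccna2 call held in 12 of 21 alternative settings and that of Plk1 in 15, and that of Cdc25c in only 4. Both Ccna2 and Plk1 lost it without untreated array 1 or 3 or without acute array 2 or 3. Of the 15 calls, 8 held in all settings and 6 were lost without at least 1 array, and 8 lower genes were left without untreated array 1, acute array 2 or acute array 3. With the replicate block the counts were 19 lower and 4 higher, the added genes being Birc5, Bub1, Ect2, Kif20a, Ndc80 and Ttk (lower) and Kif4 and Tpx2 (higher).

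Mki67, the proliferation antigen Ki-67 that coats mitotic chromosomes, went the other way. Its levels were 11.51, 10.87 and 11.40 on the untreated arrays, 12.76, 12.42 and 12.57 on the acute arrays, 12.08, 11.64 and 11.68 on the tolerant arrays and 12.41, 12.22 and 12.40 on the recovered arrays. Every LPS array was above every untreated array. The rise was 2.5-fold in acute cells (1.32 ± 0.19, adjusted p = 0.00035) and 2.12-fold in recovered cells (1.08 ± 0.19, adjusted p = 0.00117), and the tolerant difference was 0.54 ± 0.19 (adjusted p = 0.078). The acute and recovered calls held in all 21 alternative settings. A further Mki67 probe gave 1.33 in acute and 1.03 in recovered cells, so the direction did not rest on 1 probe.

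Cenpe, the kinetochore motor that carries chromosomes to the spindle equator, rose in acute cells too. Its levels were 10.51, 9.88 and 10.17 on the untreated arrays, 11.56, 11.06 and 10.85 on the acute arrays, 10.10, 9.06 and 9.31 on the tolerant arrays and 11.58, 10.84 and 10.82 on the recovered arrays. Acute and recovered arrays were all above the untreated arrays, and 2 of the 3 tolerant arrays were below them. The acute rise was 0.98 ± 0.31, adjusted p = 0.036 and the recovered rise 0.90 ± 0.31, adjusted p = 0.0444. These 2 calls were fragile. The acute one was lost without untreated array 2 or 3 or without acute array 1 or 2 (adjusted p up to 0.127), and the recovered one held in 12 of 21 settings, being lost without any single recovered array, untreated array 2 or 3, acute array 2 or tolerant array 3 (adjusted p up to 0.17).

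Incenp, the scaffold of the passenger complex, was lowest in acute cells. Its levels were 13.17, 12.96 and 13.20 on the untreated arrays, 11.998, 11.80 and 11.86 on the acute arrays, 12.76, 12.79 and 12.49 on the tolerant arrays and 12.29, 12.51 and 11.76 on the recovered arrays. All acute arrays were below all tolerant ones, and no LPS array reached the untreated range. Espl1 had levels of 7.41, 7.21 and 7.77 on the untreated arrays, 6.32, 5.78 and 6.25 on the acute arrays, 6.76, 6.05 and 6.65 on the tolerant arrays and 6.31, 6.49 and 6.26 on the recovered arrays. It was low on all 9 LPS arrays alike. Aurka, Incenp and Espl1 were the 3 genes whose lowest mean was in acute cells, and Mki67 was the only 1 of the 36 lowest in untreated cells.

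**Figure D4:**
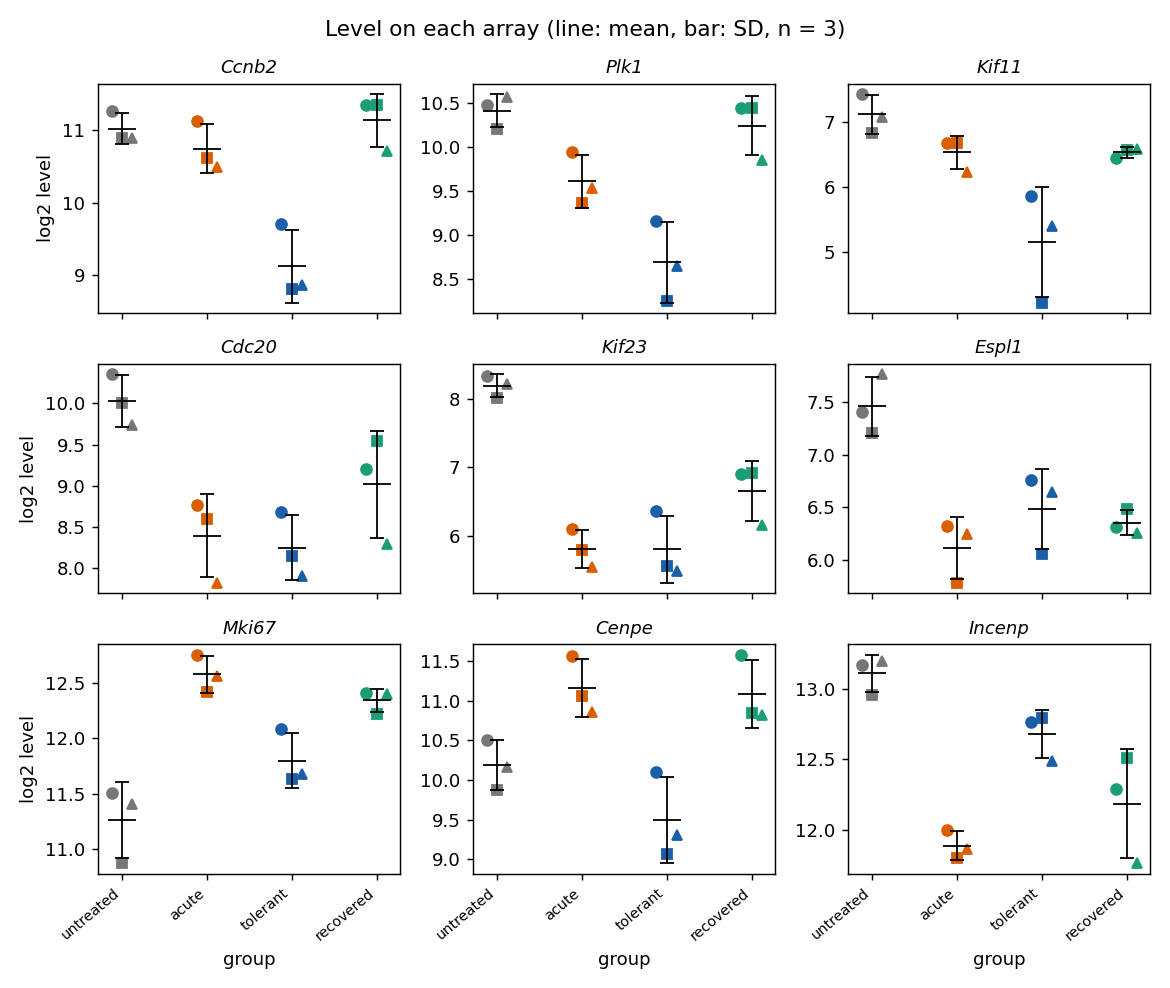
Log2 level of 9 genes on each array (circles, squares and triangles are replicates 1, 2 and 3), with the group mean (line) and SD (bar, n = 3); the vertical axes differ and do not start at 0. Ccnb2, Plk1 and Kif11 are lowest in tolerant cells, Cdc20, Kif23 and Espl1 are below untreated in every LPS group, Mki67 and Cenpe are higher in acute and recovered cells, and Incenp is lowest in acute cells.

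Tolerant cells, given LPS a second time, had lower levels than cells given it once. The tolerant and acute groups were compared on the same 4 h endpoint. Of the 36 genes 15 were lower in tolerant cells and 1 was higher, against 10.6% of all genes lower and 12% higher, with a median difference of -0.68 (all genes, -0.05). Kif4 (-1.82 ± 0.28, adjusted p = 0.00109), Cenpe (-1.67 ± 0.31, adjusted p = 0.00333) and Ccnb2 (-1.61 ± 0.28, adjusted p = 0.00203) showed the largest falls. Cdc25c was at least 1.04-fold lower (means 4.33 and 2.92, adjusted p = 0.000116). Kif11 (-1.37 ± 0.34, adjusted p = 0.0146), Foxm1 (-1.01 ± 0.19, adjusted p = 0.00319), Plk1 (-0.93 ± 0.26, adjusted p = 0.0243), Ccna2 (-0.92 ± 0.28, adjusted p = 0.0379), Top2a (-0.83 ± 0.24, adjusted p = 0.0319) and Mki67 (-0.78 ± 0.19, adjusted p = 0.0147) were also lower.

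Incenp was the gene called higher in tolerant than in acute cells (0.79 ± 0.19, adjusted p = 0.0122). Of the 13 genes lower in acute than untreated cells, Ccna2, Cdc25c and Plk1 were lower still in tolerant cells, Incenp was higher, and the other 9 were not called, with differences from -0.68 (Bub1b) to 0.37 (Espl1). Among those 9 were Kif23 (-0.01 ± 0.28), Cdc20 (-0.14 ± 0.35) and Aurka (0.23 ± 0.22). Both comparisons share the acute arrays, and with the replicate block Bub1b and Anln were lower too (adjusted p = 0.0308 and 0.0159). Of the 16 calls between tolerant and acute cells, 8 held in all 21 alternative settings and 7 were lost without at least 1 array. Those of Ccna2 and Plk1 held in 13 and 17 settings, and that of Cdc25c was lost under normexp correction (adjusted p = 0.0869). The count of lower genes was 9 without acute array 1 or without tolerant array 2, and 24 with the replicate block or the slide block. The 9 genes the replicate block added were Anln, Birc5, Bub1, Bub1b, Ccnb1, Cdk1, Hmmr, Ndc80 and Nuf2 (Ccnb1 adjusted p = 0.00732, Cdk1 adjusted p = 0.0452).

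After the longer rest most of the set stood higher than in tolerant cells. Between recovered and tolerant cells 22 of the 36 genes were higher and 0 lower (limma), against 11% of all genes higher and 9.57% lower; at an unadjusted p under 0.05 the counts were 27 and 1. The median difference was 0.86, against 0.09 over all genes. Ccnb2 (2.01 ± 0.28, adjusted p = 0.000795), Cenpe (1.59 ± 0.31, adjusted p = 0.00537) and Plk1 (1.56 ± 0.26, adjusted p = 0.00211) had the largest rises measured above background in both groups, and Ccnb2 was 4.02-fold higher. Cdc25c was at least 1.38-fold higher (means 2.92 and 4.73, adjusted p = 5.5e-05). Kif4 (1.48 ± 0.28, adjusted p = 0.00438), Nek2 (1.41 ± 0.29, adjusted p = 0.00677), Kif11 (1.37 ± 0.34, adjusted p = 0.0171), Ccnb1 (1.27 ± 0.36, adjusted p = 0.0291) and Foxm1 (1.24 ± 0.19, adjusted p = 0.00131) rose as well.

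By role, the rise took in 5 of 6 cyclins and Cdk1 activators (6 with the replicate block) and 8 of 9 spindle motors and microtubule proteins (8 with the block). It took in 1 of 6 checkpoint and anaphase genes, Ube2c (1.35 ± 0.23, adjusted p = 0.00254), and 4 of 6 with the replicate block, which added Bub1 (adjusted p = 0.00499), Cdc20 (adjusted p = 0.0102) and Mad2l1 (adjusted p = 0.00512). Aurka (-0.00 ± 0.22, adjusted p = 0.997), Espl1 (-0.13 ± 0.23, adjusted p = 0.692), Bub1b (0.42 ± 0.26, adjusted p = 0.267) and Incenp (-0.49 ± 0.19, adjusted p = 0.0882) were not called; whether roles differed in their rise was not tested. The calls leaned on the arrays in use. Of 22, 10 held in all 21 settings, and the count was 12 without tolerant array 2, 14 without tolerant array 3, 11 without recovered array 1, 12 without recovered array 2 and 14 with no filter on dim probes. The Kif23 rise (0.85 ± 0.28, adjusted p = 0.0492) held in 8 settings. With the replicate block 30 genes were higher and Incenp was lower (adjusted p = 0.0378). The higher genes the block added were Bub1, Cdc20, Cdk1 (adjusted p = 0.0109), Ect2, Mad2l1, Mki67, Ndc80 and Ttk.

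Between recovered and untreated cells 25% of the measured mitotic genes were called in either direction, against 35.4% of all genes. Of the 36 genes 7 were lower than in untreated cells (19.4%) and 2 were higher (5.56%), against 16.9% of all genes lower and 18.5% higher. The median difference was -0.36 (all genes, 0.06). Kif23 (-1.53 ± 0.28, adjusted p = 0.00117), Bub1b (-1.44 ± 0.26, adjusted p = 0.00126) and Espl1 (-1.11 ± 0.23, adjusted p = 0.00256) were the lowest called genes measured above background in both groups, and Cdc20 (-1.01 ± 0.35, adjusted p = 0.0433), Incenp (-0.92 ± 0.19, adjusted p = 0.00282) and Aurka (-0.77 ± 0.22, adjusted p = 0.0191) were lower as well. All 6 were also lower in acute cells, which share the untreated controls. Ttk was at least 1.55-fold lower (means 5.03 and 3.80, adjusted p = 0.0452), while with normexp correction its log2 difference was 0.034 and not called (adjusted p = 0.898). The genes that rose were Mki67 and Cenpe.

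Of the 28 genes lower in tolerant than untreated cells, 6 were also called lower in recovered cells and 22 were not called, with differences from -0.77 (Ccna2) to 0.42 (Tpx2), a median of -0.31, and 17 of the 22 below 0. Both comparisons share the untreated arrays. Among the 22, Anln (-0.66 ± 0.32), Kif11 (-0.58 ± 0.34), Ndc80 (-0.58 ± 0.30) and Cenpa (-0.47 ± 0.20) had means below untreated. Others lay nearer to it, with differences of 0.11 ± 0.28 for Ccnb2, -0.02 ± 0.15 for Cdc25c, -0.14 ± 0.19 for Foxm1, -0.17 ± 0.26 for Plk1 and -0.05 ± 0.24 for Top2a. Recovered array 3 was lower than the other recovered arrays. Subtracting the untreated array of the same replicate number, the median over the 36 genes was -0.33, -0.01 and -0.72 for replicates 1 to 3. On the slide that held both recovered arrays 1 and 2 the recovered minus untreated median was 0.03, and on the third slide it was -0.72. Without recovered array 3, or without untreated array 1, 4 genes were lower, and without the second scan day the median was -0.16.

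With the replicate block the recovered against untreated counts were 14 lower and 4 higher. The added lower genes were Anln, Bub1, Ccna2, Cenpa, Ect2, Kif20a and Ndc80, and the added higher genes were Mad2l1 (adjusted p = 0.00428) and Tpx2 (adjusted p = 0.0148). Of the 9 calls without the block 5 held in all settings, those of Bub1b, Espl1, Incenp, Kif23 and Mki67. The Cdc20 call held in 14 settings and was lost without untreated array 1 or 2, acute array 2, tolerant array 2, or recovered array 1 or 3 (adjusted p up to 0.164). The Aurka call was lost without untreated array 1 or recovered array 3.

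Between recovered and acute cells no member was called higher or lower by limma, and 5 were higher and 0 lower at an unadjusted p under 0.05. Few genes of any kind differed, 1.46% higher and 0.581% lower. The median difference was 0.24, against 0.04 over all genes. The 95% intervals of 31 of the 36 differences contained 0, and they reached from -1.38 to 1.50, with a median half-width of 0.60, so changes of that size were not resolved. The replicate block called 1 gene, Kif23 (higher in recovered cells, adjusted p = 0.0229), and the slide block called 4 higher.

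Genes that act earlier in the cycle also fell in part, and no test compared their list with the mitotic one. Of 23 measured genes of replication licensing and the fork, 10 were lower in tolerant cells and 0 higher (limma; 15 and 0 at an unadjusted p under 0.05), against 8.63% and 11.3% of all genes, with a median of -0.60. The replicative helicase subunits Mcm2 (-1.28 ± 0.25, adjusted p = 0.00406) and Mcm7 (-1.03 ± 0.22, adjusted p = 0.00729) and the clamp loader subunit Rfc4 (-0.69 ± 0.18, adjusted p = 0.0178) had the smallest p-values. In acute cells 10 fell and 2 rose (all genes, 15% and 14.3%), with Gmnn, the licensing inhibitor geminin (-1.88 ± 0.26, adjusted p = 0.000212), and Pold1, the catalytic subunit of polymerase delta (-1.47 ± 0.21, adjusted p = 0.000252), lower and Rfc3, another clamp loader subunit, higher (1.26 ± 0.13, adjusted p = 1.84e-05). In recovered against tolerant cells 2 rose, Rfc3 (1.14 ± 0.13, adjusted p = 0.000224) and the replication initiator Mcm10 (1.43 ± 0.31, adjusted p = 0.00888), and 1 fell, Gmnn (-0.92 ± 0.26, adjusted p = 0.0295), shares no larger than the 11% and 9.57% of all genes.

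Of 10 enzymes of nucleotide supply 4 were lower in tolerant cells and 0 higher (limma; 5 and 0 at an unadjusted p under 0.05; all genes, 8.63% and 11.3%), including the ribonucleotide reductase subunits Rrm2 (-1.25 ± 0.35, adjusted p = 0.0272) and Rrm1 (-0.60 ± 0.19, adjusted p = 0.0457). Thymidylate synthase Tyms rose in acute (1.09 ± 0.22, adjusted p = 0.00307) and recovered cells (1.18 ± 0.22, adjusted p = 0.0016). Of 15 condensin and cohesin genes 5 were lower and 1 higher in tolerant cells, where 8.63% and 11.3% of all genes were. The condensin subunit Ncapd2 (-1.19 ± 0.18, adjusted p = 0.000928) and the cohesin guardian Sgol1 (-1.19 ± 0.26, adjusted p = 0.00658) fell, and Pttg1, securin, the inhibitor of separase, rose (0.59 ± 0.14, adjusted p = 0.0111). Pttg1 was also higher in acute (1.38 ± 0.14, adjusted p = 1.96e-05) and recovered cells (1.34 ± 0.14, adjusted p = 2.35e-05), while Espl1, the separase it holds in check, was lower in all 3 groups.

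The regulators of cell cycle entry moved in both directions. Of 9 genes for G1 cyclins and kinases 3 rose and 3 fell in acute cells (all genes, 14.3% and 15%). Ccnd2, cyclin D2, rose 18.5-fold (4.21 ± 0.30, adjusted p = 1.14e-06), Ccne1, cyclin E1, rose 4.28-fold (2.10 ± 0.21, adjusted p = 1.64e-05) and Cdk6 rose by less (0.90 ± 0.14, adjusted p = 0.000556). In tolerant cells Ccnd2 was higher (1.40 ± 0.30, adjusted p = 0.00631) and Cdk4 lower (-0.73 ± 0.18, adjusted p = 0.014). In recovered cells Ccnd2 (3.51 ± 0.30, adjusted p = 4.83e-06) and Ccne1 (2.33 ± 0.21, adjusted p = 6.96e-06) were higher again. Recovered cells had more Ccnd1, cyclin D1, than acute cells (1.25 ± 0.23, adjusted p = 0.0309), a comparison in which no mitotic gene was called.

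Of 15 Cdk inhibitors and quiescence genes 4 rose and 1 fell in acute cells, 2 rose and 6 fell in tolerant cells, and 4 rose and 3 fell in recovered cells. Over all genes the shares that rose and fell were 14.3% and 15% in acute, 11.3% and 8.63% in tolerant and 18.5% and 16.9% in recovered cells, so the 2 rises in tolerant and the 3 falls in recovered cells were near the background. Cdkn1a, the inhibitor p21, was higher in all 3 groups, by 2.70 ± 0.20, 1.67 ± 0.20 and 2.68 ± 0.20 (adjusted p = 1.93e-06, 0.000184 and 2.03e-06). Cdkn1c, the inhibitor p57, fell in tolerant (-3.29 ± 0.32, adjusted p = 3.36e-05) and recovered cells (-2.66 ± 0.32, adjusted p = 6.72e-05). Wee1, the kinase that inhibits Cdk1, fell in tolerant cells (-1.30 ± 0.17, adjusted p = 0.0003) and was higher in recovered than tolerant cells (1.12 ± 0.17, adjusted p = 0.00132), the course of most mitotic genes.

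Of 20 regulators of the E2F, Rb and MuvB families 2 rose and 5 fell in acute cells, and 0 rose and 2 fell in tolerant cells (limma, with 0 higher and 5 lower at an unadjusted p under 0.05). Against the 11.3% and 8.63% of all genes in tolerant cells, and 14.3% and 15% in acute cells, the tolerant falls and the acute rises were near or below the background. E2f2, an activating E2F, fell in acute (-3.39 ± 0.25, adjusted p = 1.86e-06), tolerant (-2.73 ± 0.25, adjusted p = 2.43e-05) and recovered cells (-3.92 ± 0.25, adjusted p = 5.8e-07). Rbl1, the pocket protein p107, rose in acute (1.79 ± 0.19, adjusted p = 3.21e-05) and recovered cells (1.68 ± 0.19, adjusted p = 4.67e-05). Mybl2, B-Myb, was lower in tolerant than acute cells (-1.23 ± 0.28, adjusted p = 0.00839). None of the 38 genes is in these lists.

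**Figure D5:**
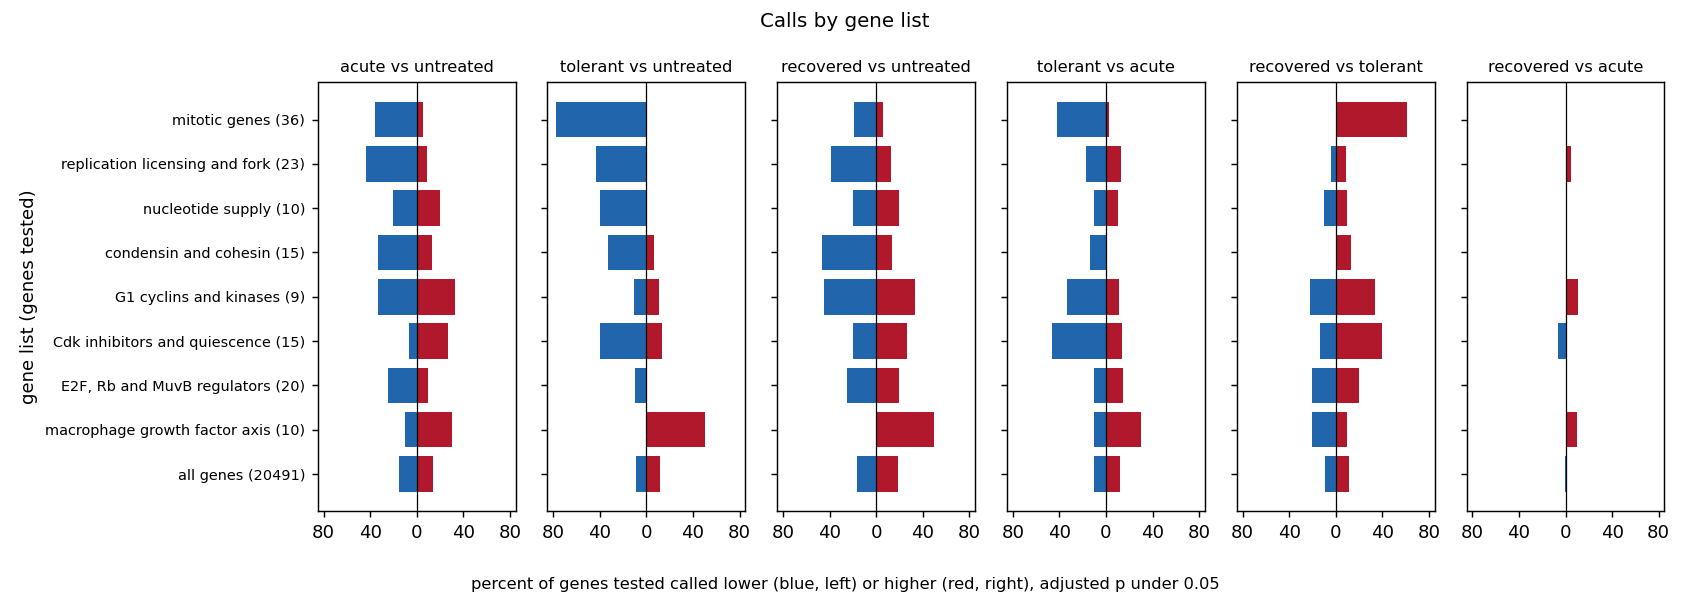
Share of the measured genes of each list called lower (blue, to the left) or higher (red, to the right) in each of the 6 comparisons, as a percent of the genes tested (number in brackets), with all 20491 genes in the bottom row. The mitotic genes have 28 of 36 lower in tolerant against untreated cells and 22 of 36 higher in recovered against tolerant cells, and none called in recovered against acute cells.

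Markers of other cell types were mostly not above background. Of 7 markers of granulocyte and monocyte precursors, which divide, 4 were tested and Mpo, Prtn3 and Ms4a3 were above background in no group. The mean level of the 4 was 6.79 to 7.18 on untreated arrays and 6.07 to 6.76 on tolerant arrays. Kit, the stem cell factor receptor, was the 1 called, at least 4.62-fold lower in tolerant cells (adjusted p = 0.000202), and lower in recovered cells, where 1 of 3 arrays was above background (-2.26 ± 0.40, adjusted p = 0.00107). Kit passed the filter only through untreated and acute arrays, so it could enter only if high there. Over the 4 genes the median tolerant minus untreated difference was -0.04 and the highest 1.22. Elane, another of the 4, was above background in every group. Of 7 neutrophil markers S100a9, Ngp, Ltf and Retnlg were above background on all 3 arrays of no group, and Ly6g was not on the array. S100a8 and Camp were tested, with a mean level of 6.58 to 7.35 in untreated and 8.94 to 9.84 in tolerant cells, where both were higher (2.61 ± 0.33, adjusted p = 0.00025 and 2.25 ± 0.26, adjusted p = 0.000133). Their part in the mitotic result was not tested.

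Of 7 lymphocyte markers Cd3e and Cd79b were tested, and Cd79b fell in recovered cells (-3.86 ± 0.65, adjusted p = 0.000717). Of 7 erythroid and platelet markers 3 were tested, with Ppbp higher in tolerant cells (at least 3.92-fold, adjusted p = 0.00807) and Pf4 higher in recovered cells (2.39 ± 0.39, adjusted p = 0.000559). Ppbp passed the filter only through the tolerant arrays, so it could enter only if high there. Of 7 fibroblast markers 3 were tested, with Col1a1, Col3a1, Pdgfra and Lum above background in no group, and of 5 dendritic cell markers 3 were tested. The receptor gene Pdgfrb was at least 20.75-fold higher and the transcription factor gene Zbtb46 17.8-fold higher in tolerant cells, and both were also higher in acute and recovered cells. Pdgfrb did not pass the filter through the untreated arrays, so it could enter only if high in an LPS group. Mean levels on untreated and tolerant arrays were 10.3 to 10.8 and 9.24 to 9.99 for lymphocyte markers, 7.13 to 7.75 and 8.28 to 8.54 for erythroid and platelet markers, 3.97 to 4.37 and 6.63 to 6.82 for fibroblast markers, and 7.56 to 8.73 and 10.3 to 10.6 for dendritic cell markers. Their part in the mitotic result was likewise not tested.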

How the data were processed

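The series holds 12 single-colour arrays of mouse bone marrow-derived macrophages, 3 in each of 4 groups taken from the sample titles. Each array read 200 ng of RNA labelled with Cy3. Per the file headers, the deposited scanner files hold spot intensity values from Agilent Feature Extraction 10.7.3.1, which subtracted a fitted spatial background and detrended within each array, without scaling between arrays. The authors' deposited matrix holds log2 values, for which the submitters' processing notes name limma; its background correction is not given in the sources used here. Each of its 12 columns matched its own array best (r of at least 0.973 across spots), and it served only as an alternative. Precision is limited by the count of 3 arrays in a group.

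Of 62976 spots 59305 were not controls, carrying 55681 probes. Outlier spots, of which an array had 135 to 233, were dropped, and 118 probes were lost by that. Intensities were put on a log2 scale, each array's 75th percentile (8.04 to 9.38) was subtracted and the mean added back. Probes were kept (28056) where every array of 1 or more groups had a signal well above background, and the brightest stood for its gene (20491 genes). For 27 of the 36 measured members 1 probe was tested and for 9 several, with 0 called in opposite directions, and all 36 probe accessions matched their symbol. All arrays were fitted in 1 model of 4 group means with limma 3.58.1 (lmFit, eBayes; R 4.3.3, with version 1.17.8 of data.table; 8 residual and 3.06 prior degrees of freedom), with 6 two-sided comparisons and Benjamini-Hochberg adjustment over all genes. The script was tested on simulated data. Promoters were RefSeq's, and figures were drawn with Python 3.11.15 and matplotlib 3.10.9.

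Arrays with the same replicate number deviated together after removal of group means (18 pairs, r from 0.276 to 0.773 across genes, median 0.449). For 36 pairs with different numbers the median was -0.368. Removal of group means by itself pushes such pairs below 0 where same-number pairs lie above it, so that value adds no separate support. The replicate number was therefore used as a block, though the labels do not say that it pairs experiments across groups. Except for recovered array 1, each replicate number sat on 1 slide, and replicate 3 was scanned on the second day. Replicate, slide and scan day can therefore hardly be told apart. The fit with the replicate block is given where it changed the call of a member. Members and gene lists were chosen with earlier results of these data known. Named with full values were a panel of 14 members and the 6 others with the smallest F-test p, per comparison the 3 largest rises and falls and any member called against the majority, and per gene list up to 3 called genes with the smallest p. Alternatives were quantile normalization, normexp background correction (offset 50), the authors' matrix, no filter on dim probes, the mean over probes, the replicate and the slide block, the first scan day alone, an intensity trend in the variance prior and leaving out each array. Probe exons were not analysed here. The values of 1 gene of the lists that met the naming rule are not reported here.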

Additional observations from a re-analysis of the deposited data

How the results depend on the processing

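Counts are of members called by limma, and no share of all genes is given for the alternative settings. Every median kept its direction in the 21 settings, within the ranges -0.72 to -0.33 (acute against untreated), -1.46 to -0.92 (tolerant against untreated), -0.51 to -0.16 (recovered against untreated), -0.93 to -0.51 (tolerant against acute), 0.67 to 1.14 (recovered against tolerant) and 0.09 to 0.42 (recovered against acute). Quantile normalization moved the median of all genes in acute against untreated cells from 0.02 to -0.12. The replicate block and the slide block changed the counts, given here in that order. Higher genes numbered 4 and 4 in acute and 4 and 4 in recovered against untreated cells (2 without a block). They numbered 1 and 1 in tolerant against untreated cells (0 without) and 1 and 4 in recovered against acute cells (0 without). Lower genes numbered 24 and 24 in tolerant against acute cells (15 without). The replicate block also gave 14 lower genes in recovered against untreated (7 without) and 1 in recovered against tolerant cells (0 without); it ended no call. With no filter on dim probes, 1 gene was higher in acute and 1 in recovered against untreated cells, and 14 in recovered against tolerant cells (22 with the filter). With the authors' matrix, recovered against untreated gave 4 higher and 11 lower, tolerant against untreated 1 higher and recovered against tolerant 1 lower. Normexp correction gave 1 higher in tolerant against untreated and 1 lower in recovered against tolerant cells, and quantile normalization 1 lower in the latter. Without the second scan day, acute against untreated gave 1 higher and 7 lower (13 with it) and recovered against untreated 1 higher. Leaving out 1 array at a time gave 1 to 3 higher and 8 to 13 lower in acute against untreated, 23 to 30 lower in tolerant against untreated, 1 to 3 higher and 4 to 8 lower in recovered against untreated, 9 to 18 lower in tolerant against acute, and 11 to 23 higher and 0 to 1 lower in recovered against tolerant cells; the higher count of 1 arose without untreated array 2 or 3 or acute array 1 or 2 (acute), and without untreated array 2 or 3, acute array 2, tolerant array 3 or recovered array 1 or 2 (recovered). Of single genes, Ttk in recovered against untreated cells reversed to 0.034 under normexp (adjusted p = 0.898). The causes were not tested. Near background (Ttk, Cdc25c) the array gives bounds rather than levels, and members with an SE of 0.431 resolve less than those with 0.146.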

Other observations

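Genes of the macrophage growth factor axis, which support the growth of these cells, were called higher in up to 5 of 10 cases. Of 10 measured genes 3 rose and 1 fell in acute cells, 5 rose and 0 fell in tolerant cells, and 5 rose and 0 fell in recovered cells (limma; at an unadjusted p under 0.05, 2 were lower in tolerant and 0 in recovered cells). Over all genes the shares higher were 14.3%, 11.3% and 18.5%. Csf1, the macrophage growth factor itself, rose 33.5-fold in acute (5.06 ± 0.23, adjusted p = 4.69e-08), 5.63-fold in tolerant (2.49 ± 0.23, adjusted p = 2.64e-05) and 24.8-fold in recovered cells (4.63 ± 0.23, adjusted p = 8.4e-08). Its receptor gene Csf1r was higher in recovered than acute cells (0.67 ± 0.13, adjusted p = 0.0364).

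Csf2, which encodes granulocyte-macrophage growth factor, was not well above background on any untreated array, was so on 2 of 3 acute and 2 of 3 recovered arrays, and passed the filter only through the tolerant arrays, so it could enter only if high there. It was at least 1.66-fold higher in acute, 11.43-fold in tolerant and 2.11-fold in recovered cells (adjusted p = 0.000226, 2.52e-06 and 8.17e-05). The receptor subunit gene Csf2rb was higher in tolerant than untreated (0.67 ± 0.14, adjusted p = 0.00679) and than acute cells (0.999 ± 0.14, adjusted p = 0.000738). The early response gene Egr1 was higher in acute (2.04 ± 0.36, adjusted p = 0.00129) and recovered cells (1.65 ± 0.36, adjusted p = 0.0043).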
